A study of Oncorhynchus kisutch with 226 samples.

Results

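Liver expression was compared among 3 stocks of wild coho salmon (Oncorhynchus kisutch) caught at sea in fall 2009. The fish were selected by their labels, as season Ocean_Fall, year 2009, origin Wild and catch area NM_SoG or south_SoG, areas of the Strait of Georgia, and they numbered 26 of the 226 fish of the series. The stock label put 9 of them in ECVI, 9 in Fraser and 8 in S_Main. The abbreviations are those of the labels, and all 26 were wild animals with no treatment, caught in salt water. The areas NM_SoG and south_SoG held 3 and 6 ECVI fish, 6 and 3 Fraser fish, and 5 and 3 S_Main fish. A finer label split NM_SoG into north_SoG and mid_SoG. All 3 ECVI fish of NM_SoG were labelled mid_SoG, whereas Fraser fish 1 and 2 and S_Main fish 1 and 2 were labelled north_SoG. Fits by catch area below use NM_SoG as a whole, and this split was not tested. Females and males numbered 5 and 4 in ECVI, 4 and 5 in Fraser, and 4 and 4 in S_Main. Hatchery fish of the same stocks and season (26), wild fish caught in summer (27) and hatchery fish caught in summer (24), all of 2009 and these areas, served as further sets. Stock and catch area were tied in the first 2 of them. In hatchery fall fish NM_SoG held 9 of 9 ECVI, 2 of 10 Fraser and 3 of 7 S_Main fish, in wild summer fish 0 of 8 ECVI, 9 of 10 Fraser and 7 of 9 S_Main fish, and in hatchery summer fish 7 of 8 ECVI, 8 of 10 Fraser and 5 of 6 S_Main fish. Ages are not given in the labels. Each fish was hybridised on its own array against a pool of liver RNA from the whole series, and each value below is a log2 ratio of fish over pool, a base and direction read from the values and labels.

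Coho salmon hatch in rivers, migrate to sea as smolts and return to their river of birth to spawn, so that fish of different rivers form separate stocks which mix at sea. The liver makes most of the plasma proteins, stores and releases sugar and fat, and carries much of the response to feeding, temperature and infection. Because the tissue was measured whole, fewer cells of a type and less RNA per cell cannot be told apart. The probes are identified by the column and row of their spot (C150R132 for example) and were not matched to genes in the sources used here. Probes are therefore described by their values, no function is given to any of them, and liver markers could not be examined.

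The arrays of the 3 stocks differed before any single probe was considered. The number of probes with a deposited ratio was 15401 at the lowest, 18274 at the median and 23727 at the highest in ECVI fish. Fraser fish had 20226, 22340 and 24495, and S_Main fish 19065, 24287.5 and 27117. ECVI arrays thus carried fewer measured probes, with ranges that overlapped those of both other stocks. The mean of ECVI lay below that of Fraser (exact two-sided permutation test, n = 9 and 9, adjusted p = 0.0074) and of S_Main (exact permutation test, n = 9 and 8, adjusted p = 0.00814). Fraser minus S_Main was -916 probes (exact permutation test, n = 9 and 8, adjusted p = 0.416). Within south_SoG the arrays of all 6 ECVI fish (15401 to 19021) lay below those of all 3 Fraser fish (20226 to 24495) and all 3 S_Main fish (19065 to 26145). These differences were -4580 and -5800 probes, each with the smallest exact permutation p that 6 against 3 fish allow (0.0238, adjusted p = 0.0714). Within NM_SoG the ranges overlapped and the differences were -1240 and -2020 against Fraser and against S_Main (exact permutation, p = 0.476 and 0.321, adjusted p = 0.554 for both), where 3 against 6 and 3 against 5 fish allow 0.0238 and 0.0357 at the lowest. On slide means they were -2620 (exact permutation, adjusted p = 0.134) and -2960 (adjusted p = 0.188). The counts of called probes within wild fall, hatchery fall, wild summer and hatchery summer fish are given below with and without this number in the fit, and the tests between sets without it only.

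A common pattern of variation was then read from fish outside the comparison. The leading axis of 112 other summer and fall fish, over 8210 probes, held 36.4% of their variance, and the 26 fish were scored on it. The 112 include the hatchery fall, wild summer and hatchery summer fish of the same stocks, so the axis may hold a stock difference of those fish. Its sign was set so that ECVI had the higher mean among the 26. ECVI fish scored -1.25 at the lowest, 0.43 at the median and 1.52 at the highest. Fraser fish scored between -1.04 and -0.39, with a median of -0.84. S_Main fish scored between -0.80 and -0.66. Of the 9 ECVI fish, 7 lay above every Fraser and S_Main fish, while ECVI fish 1 and 8 (the numbers only name fish) scored -1.25 and -0.82, the first below every Fraser and S_Main fish and the second within the Fraser range. The mean of ECVI was 0.35 ± 0.92, against -0.81 ± 0.20 in Fraser (SD, n = 9 each, exact permutation test, adjusted p = 0.0074) and -0.73 ± 0.05 in S_Main (n = 8, exact permutation test, adjusted p = 0.0074). The ECVI differences of 1.16 over Fraser and 1.08 over S_Main were 0.942 and 0.85 within NM_SoG (exact permutation, adjusted p = 0.429 and 0.554) and 1.26 and 1.21 within south_SoG (adjusted p = 0.143 for both). On slide means they were 1.18 (adjusted p = 0.039) and 1.12 (adjusted p = 0.0779). Fraser and S_Main differed by -0.0778 (exact permutation test, n = 9 and 8, adjusted p = 0.381). The 4 ECVI fish 1, 2, 4 and 5 shared a slide, and on that slide alone the score ran between -1.25 and 1.52.

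**Figure D1:**
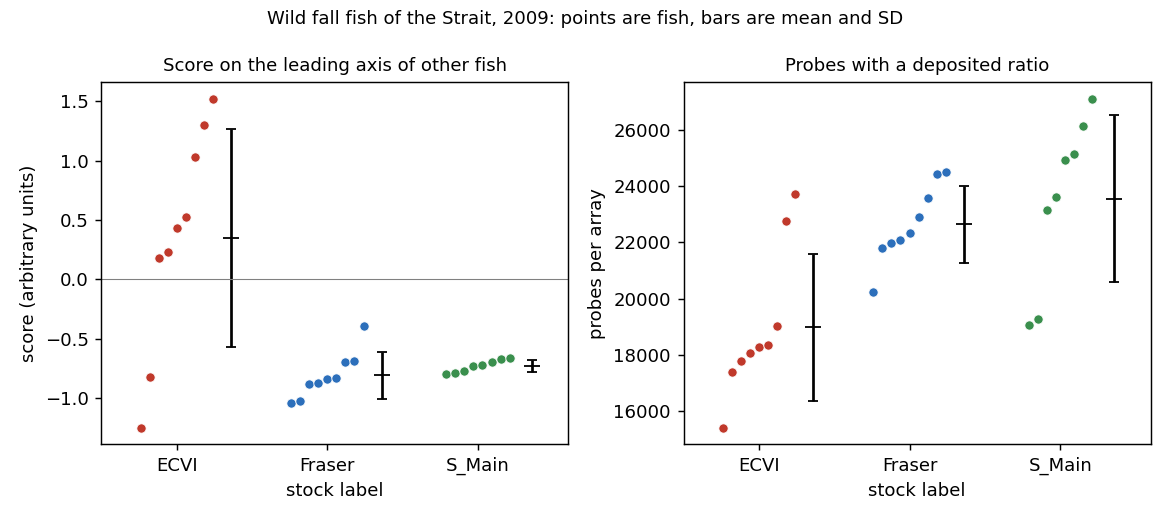
Left, score of each of the 26 wild fall fish on the leading axis of 112 other fish (arbitrary units); right, number of probes with a deposited ratio per array. Points are fish and bars are mean and SD: 7 of 9 ECVI fish lie above 0 on the axis while all Fraser and S_Main fish lie below it, and ECVI arrays centre near 18969 measured probes.

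ECVI fish also varied more among themselves. Over the 10865 probes measured on all 26 arrays, the median SD between fish was 0.62 in ECVI, 0.44 in Fraser and 0.38 in S_Main. ECVI had the largest SD of the 3 stocks at 69.8% of these probes. Pairs of ECVI fish correlated across these probes with a median r of 0.15 on different slides and 0.04 on the same slide, whereas pairs of Fraser fish reached 0.36 and 0.57. S_Main pairs reached 0.41 and 0.45. The same-slide values came from 6 ECVI, 6 Fraser and 3 S_Main pairs. Those ECVI pairs were all among fish 1, 2, 4 and 5 of a single slide. The Fraser ones were all among Fraser fish 4, 5, 6 and 7 of a single slide. A Fraser fish paired with an S_Main fish gave a median r of 0.41, close to that of Fraser pairs and of S_Main pairs on different slides and above that of ECVI pairs. ECVI fish paired with Fraser fish gave 0.09, and with S_Main fish 0.06. These correlations are across probes, which are not independent replicates, and all arrays share the same pool.

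The question of whether any stock differed was put to an F test of both stock contrasts in limma. Of 17141 probes tested, 563 (3.28%) passed a Benjamini-Hochberg adjusted p of 0.05 over all of them, and 432 of these had a difference of at least 1 on the log2 scale between some pair of stocks. The 4 probes with the lowest p all set ECVI apart from the other 2 stocks. No probe passed with the number of measured probes in the limma fit (856 at an unadjusted p below 0.05), where those 4 had an adjusted p of 0.968 each, nor in NM_SoG fish (1251), south_SoG fish (1469) or females (733) alone, while 621 passed in males alone. The number of measured probes itself differed between ECVI and the other stocks, so fits with it cannot tell stock from that number. Fits within an area or sex hold fewer fish, and the part of this in their results was not tested. The count was 277 with catch area in the fit, 130 on slide means, 3 with slide as a fixed block in a fit of all arrays and 1 without the slide of 4 Fraser fish. Without the slide of 4 ECVI fish, fish 1 among them, it was 533. With the fixed block the stocks are linked only through other fish on the slides. Fewer probes were tested in some of these settings: 12823 with the fixed block, 14572 in males, 14948 in south_SoG fish and 16126 in NM_SoG fish. Leaving out 1 fish gave 81 without ECVI fish 3 at the lowest and 1670 without ECVI fish 1 at the highest, and 1460 without ECVI fish 8. ECVI fish 1 and 8 were both female, so the fit of males alone holds neither of them, and the difference between sexes was not tested. With the outside axis score in the fit none passed (253 at an unadjusted p below 0.05), but that score is read from the same ratios of these fish, so the fit takes out much of the stock difference itself and bears on no call here.

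C150R132 was the one of the 4 that was higher in ECVI. The 7 ECVI fish in which it was measured held ratios of 0.17 at the lowest, 0.92 at the median and 1.91 at the highest. In the 8 measured Fraser fish the ratios were -2.17, -0.90 and 0.04, and in the 7 measured S_Main fish -1.88, -1.48 and -0.81. Every measured ECVI fish lay above every Fraser and S_Main fish. The log2 difference was 1.85 over Fraser (SE 0.30, 3.6-fold) and 2.23 over S_Main (SE 0.31, 4.68-fold), with an adjusted F p of 0.00442.

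C001R076 showed the opposite order. It ran between -2.56 and -0.18 in the 9 ECVI fish, with a median of -0.83. Fraser fish ran between 0.33 and 1.36 (median 0.92), and S_Main fish between -0.17 and 1.36 (median 0.61). All 9 ECVI fish lay below all 17 others, although ECVI fish 1 and 4 at -0.18 came within 0.01 of the lowest S_Main fish. The difference was -1.90 against Fraser (SE 0.29, 3.73-fold lower) and -1.72 against S_Main (SE 0.30, 3.3-fold lower), with an adjusted F p of 0.00442.

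C069R013 and C240R125 completed the 4, each with an adjusted F p of 0.0113. C069R013 averaged -0.59 ± 0.86 in ECVI, 1.19 ± 0.47 in Fraser and 0.85 ± 0.31 in S_Main (SD, n = 9, 9 and 8). All ECVI fish lay below all Fraser fish at this probe, while ECVI fish 1 (0.51) and 8 (0.64) fell within the S_Main range. C240R125 averaged -1.89 ± 1.51 in ECVI, 0.68 ± 0.55 in Fraser and 0.50 ± 0.32 in S_Main, and the ECVI fish split into 7 between -3.05 and -2.02 and 2, fish 1 and 8, at 0.99 and 0.39. Both of these values lay inside the ranges of both other stocks.

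**Figure D2:**
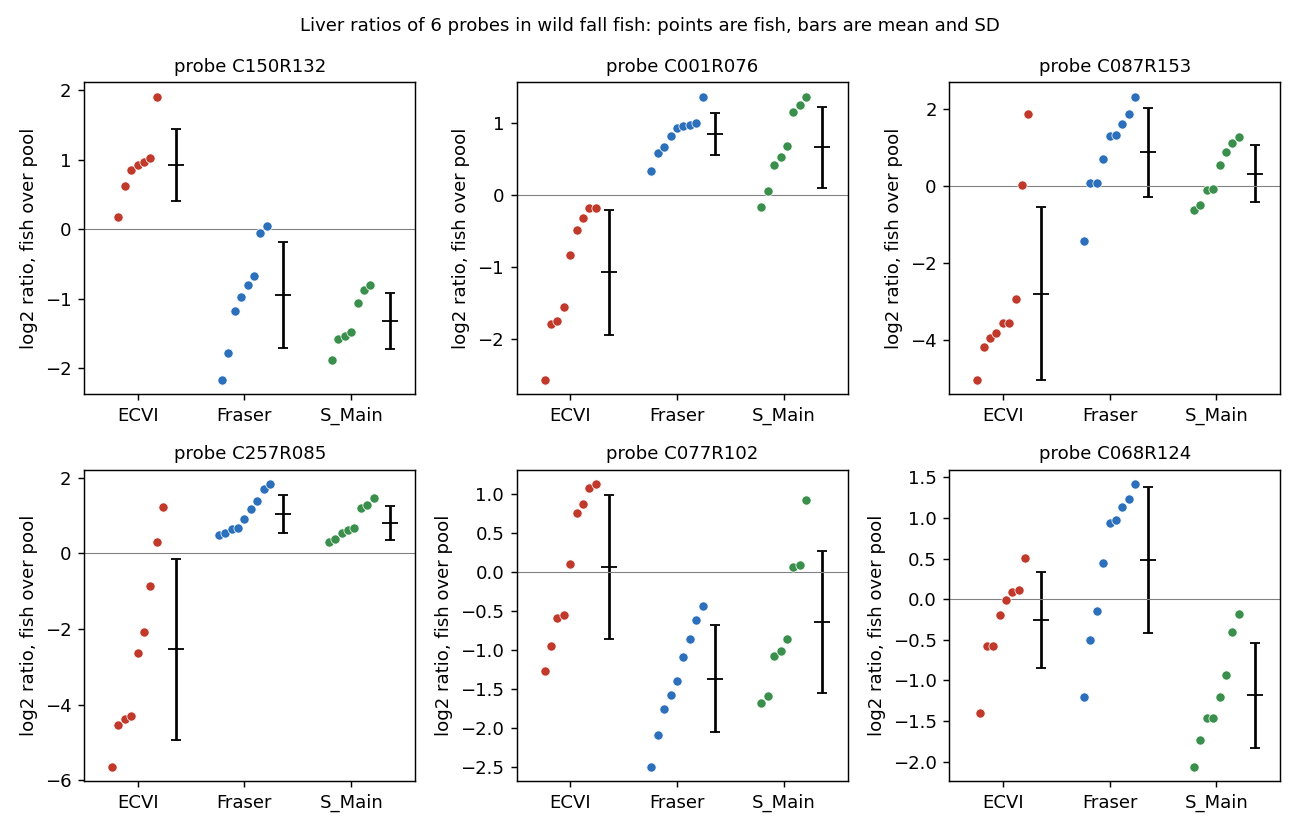
Log2 ratio of fish over pool for 6 probes in the wild fall fish, by stock; points are fish, bars are mean and SD, and each panel has its own vertical scale. At C150R132 and C001R076 the measured ECVI fish do not overlap the others, whereas at C087R153 and C257R085 7 ECVI fish lie low and 2 lie among the Fraser and S_Main fish.

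For ECVI against Fraser, 805 of 17141 probes were called (4.7%), of which 162 (0.945%) were higher and 643 (3.75%) lower in ECVI, and 511 changed by at least 1. The called probes had a median difference of 0.83 where ECVI was higher and -1.27 where it was lower, against a median absolute difference of 0.29 over all probes tested. At the 643 lower probes the median of the stock means was -0.65 in ECVI and 0.65 in Fraser.

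The largest called difference was at C087R153. ECVI ratios were -5.04 at the lowest, -3.57 at the median and 1.87 at the highest, against -1.43, 1.30 and 2.33 in Fraser fish. It was 12.9-fold lower in ECVI (log2 difference -3.69, SE 0.71, adjusted p = 0.0106). Of the ECVI fish 7 lay below every Fraser fish, and fish 1 (1.87) and 8 (0.02) lay within the Fraser range. C257R085 held -5.66, -2.63 and 1.24 in ECVI fish and 0.48, 0.91 and 1.84 in Fraser fish, an 11.7-fold lower level (log2 difference -3.55, SE 0.66, adjusted p = 0.0106). At this probe fish 8 was the ECVI fish inside the Fraser range, and fish 1 stood below it at 0.30.

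Among probes higher in ECVI, with the same share of fish measured, the differences were smaller. C150R132, measured in fewer ECVI fish, is given above. C077R102 held -1.27 at the lowest, 0.10 at the median and 1.13 at the highest in ECVI fish, against -2.50, -1.40 and -0.44 in Fraser fish. The difference was 1.48 (SE 0.39, 2.79-fold, adjusted p = 0.0289), with 5 ECVI fish above every Fraser fish and the rest overlapping. C032R027 held -1.57, -0.20 and 1.39 in ECVI fish and -3.34, -1.91 and -0.39 in Fraser fish, a difference of 1.42 (SE 0.41, 2.67-fold, adjusted p = 0.0427). Again 5 ECVI fish lay above all Fraser fish. This call did not hold in 13 of 21 other settings of the fit, catch area (1.47, adjusted p = 0.0525) and slide means (1.67, adjusted p = 0.0548) among them, nor in 10 of 26 fits that left out 1 fish. For C077R102 the numbers were 8 of 21 and 5 of 26, and for C087R153 and C257R085 7 of 21 and 0 of 26.

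These counts rested on particular arrays and settings. Fits within an area or of females also held fewer fish: 3 ECVI against 6 Fraser in NM_SoG, 6 against 3 in south_SoG and 5 against 4 females. The part of fewer fish in their counts was not tested. With limma, no probe was called when the number of measured probes was added to the fit (1644 at an unadjusted p below 0.05), among NM_SoG fish (1772), south_SoG fish (1764) or females (1024) alone, or without the slide of 4 Fraser fish (2644), and 4 were called with slide as a fixed block in a fit of all arrays. With catch area in the fit 499 were called, and 856 among males alone, which hold neither ECVI fish 1 nor ECVI fish 8. Without the slide of 4 ECVI fish, fish 1 among them, 1089 were called. The difference at C087R153 was -2.88 with measured probes in the fit, -4.05 in south_SoG fish, -3.06 in NM_SoG fish, -2.54 in females, -3.82 without the Fraser slide and -4.41 with the fixed block, and that at C077R102 was 1.44 with measured probes. The count was 2249 without ECVI fish 1, 2011 without ECVI fish 8, 195 without ECVI fish 3, 322 without ECVI fish 2, 385 without ECVI fish 7, 408 without Fraser fish 2 and 532 without Fraser fish 5. No slide held fish of 2 of these stocks among the 17 slides used (6 with ECVI, 6 with Fraser and 5 with S_Main fish), so stocks were compared across slides and never within one, and with slide means as replicates 336 probes were called.

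For ECVI against S_Main, 421 of 17141 probes were called (2.46%), 61 higher (0.356%) and 360 lower (2.1%) in ECVI, and 313 changed by at least 1. The median difference was 0.89 among the higher and -1.35 among the lower probes, against a median absolute difference of 0.27 over all probes. Both ECVI comparisons use the same ECVI fish, and their values are set side by side for that reason without a count of shared probes.

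C257R085 had the largest called difference among the lower probes of this pair. S_Main fish held 0.29 at the lowest, 0.64 at the median and 1.48 at the highest, above 7 of the 9 ECVI fish, whose values are given above. It was 10.1-fold lower in ECVI than in S_Main (log2 difference -3.34, SE 0.67, adjusted p = 0.0233). C162R122 held -5.68, -2.07 and 1.05 in ECVI fish, against 0.55, 1.00 and 1.54 in S_Main fish. The difference was -3.30 (SE 0.66, 9.82-fold lower, adjusted p = 0.0233), with ECVI fish 1 (0.64) and 8 (1.05) inside the S_Main range and the other 7 below it. Against Fraser fish, C162R122 differed by -3.14 (SE 0.64, adjusted p = 0.0116).

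Beside C150R132, whose values are given above, C123R072 had the largest called difference in favour of ECVI among probes measured in at least 80% of the fish of both stocks. ECVI fish held -0.78, 0.22 and 1.49, against -2.67, -0.84 and -0.34 in S_Main fish, a difference of 1.49 (SE 0.37, 2.81-fold, adjusted p = 0.0352). Of the ECVI fish 7 lay above every S_Main fish. C057R157, measured in 8 of 9 ECVI fish, held -0.96, -0.42 and 1.04 there and -2.66, -1.60 and -0.29 in S_Main fish, a difference of 1.36 (SE 0.37, 2.57-fold, adjusted p = 0.0474). Its groups overlapped, with 3 ECVI fish above all S_Main fish. The call at C057R157 did not hold in 14 of 20 other settings, catch area (1.29, adjusted p = 0.0782) and fork length (1.30, adjusted p = 0.0622) among them, nor in 20 of 26 fits that left out 1 fish. That at C123R072 did not hold in 11 of 21 settings and 8 of 26 such fits, against 8 of 21 and 2 of 26 for C257R085 and for C162R122. Against Fraser these probes differed by 0.90 (adjusted p = 0.138) and 0.98 (adjusted p = 0.106), which did not pass the threshold.

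With limma, no ECVI against S_Main probe was called with the number of measured probes in the fit (883 at an unadjusted p below 0.05), with slide as a fixed block in a fit of all arrays (2171), or among NM_SoG fish (1405), south_SoG fish (1630) or females (1010) alone, and 1 was called with slides as replicates or without the slide of 4 Fraser fish. With catch area in the fit 156 were called, and 612 among males alone, again without ECVI fish 1 and 8. Without the slide of 4 ECVI fish, fish 1 among them, 599 were called. The slide of 4 Fraser fish holds no fish of this pair, and enters it only through the pooled variance and the probes tested. The fits within an area or sex again held fewer fish, and the part of this was not tested. With measured probes in the fit the difference was -1.89 at C257R085 and 1.29 at C057R157. The count was 1502 without ECVI fish 1 and 1328 without ECVI fish 8, 1 without ECVI fish 3 or ECVI fish 7, and between 122 and 230 without ECVI fish 2, 4 or 9 or any S_Main fish.

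The called probes were then read fish by fish, as a description, since the same fish chose them. At the 643 probes lower in ECVI than in Fraser, ECVI fish 2 lay below every Fraser fish at 98.6% of those measured, fish 3 at 97.6%, fish 7 at 93.2%, fish 5 at 89.3%, fish 4 at 88.3%, fish 9 at 86.7% and fish 6 at 70.5%. ECVI fish 8 did so at 5.91% and fish 1 at 10.5%. Over all tested probes the same shares were 6.28% in fish 8, 12% in fish 1 and between 15% and 26.8% in the other ECVI fish. Relative to Fraser fish, fish 1 and 8 thus stood no lower at the called probes than at probes in general. The 162 higher probes split the ECVI fish less sharply, with 30.3% above every Fraser fish in fish 1, 28.3% in fish 8 and between 67.7% and 92.4% in the others. Over all tested probes fish 1 lay above every Fraser fish at 9.57% and fish 8 at 6.2%, so at the higher probes both stood above Fraser more often than at probes in general. At the 61 probes higher than in S_Main the shares were 40.5% in fish 1 and 35.4% in fish 8, against 11.9% and 8.96% over all probes. Against S_Main, at the 360 lower probes, the shares were 16.8% in fish 1, 12.5% in fish 8 and between 82.2% and 99.7% in the others, where fish 1 and 8 had 15.5% and 10.4% over all probes. Fish 1 was a south_SoG female and fish 8 an NM_SoG female, and they lay on different slides. Their arrays had 19021 and 23727 measured probes, the third highest and the highest of the ECVI arrays, and the part of this in their position was not tested. Their stock labels were taken as given and were not tested, and every ECVI mean, SD and count includes both fish unless stated.

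**Figure D3:**
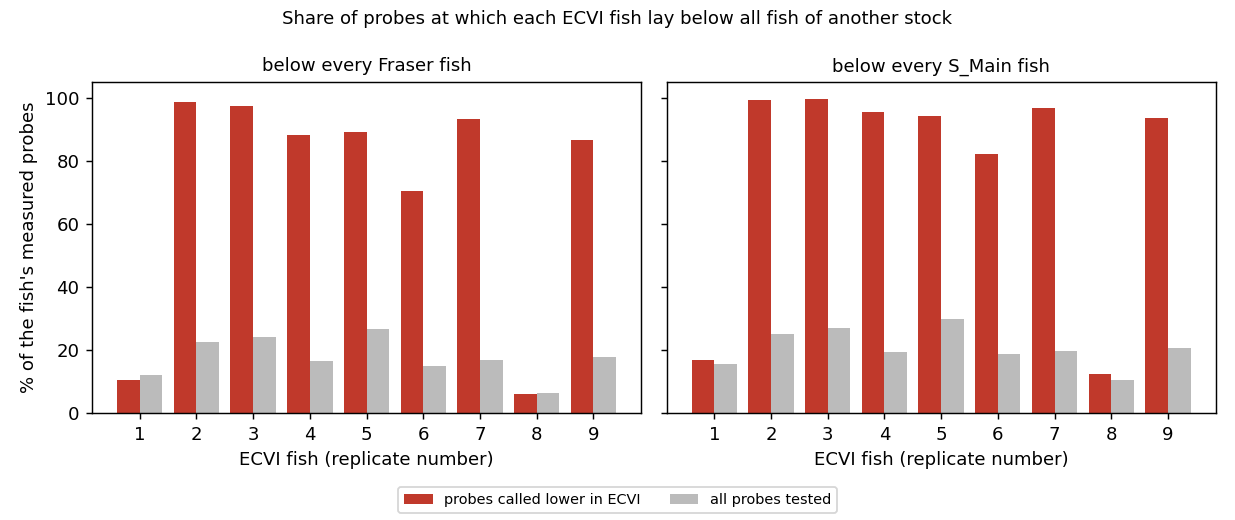
For each ECVI fish, the percentage of its measured probes at which it lay below every Fraser fish (left) or every S_Main fish (right), for probes called lower in ECVI (red) and for all probes tested (grey). In fish 1 and 8 the red bars stand near the grey ones, and in the other 7 they stand at 70.5% or more.

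No probe passed the test between Fraser and S_Main. With limma, 0 of 17141 probes (0%) were called, 205 (1.2%) had an unadjusted p below 0.05, and the lowest adjusted p was 0.574. With measured probes in the limma fit the count was also 0, with 241 at an unadjusted p below 0.05. The median absolute difference was 0.13, and 43 probes (0.251%) differed by at least 1, against 798 (4.66%) for ECVI and Fraser and 694 (4.05%) for ECVI and S_Main. The median standard error was 0.24 here, 0.24 for ECVI and Fraser and 0.25 for ECVI and S_Main. The fit gives each probe a single residual variance pooled over the stocks, so near-equal errors follow from it. They do not measure the precision of each pair, as the median SD was 0.62 in ECVI, 0.44 in Fraser and 0.38 in S_Main. The part of the ECVI spread in the count of 0 was not tested. In simulated ratios with the same arrays, 43.3% of probes changed by 1 and 98.5% of those changed by 2 were recovered for Fraser against S_Main. These ratios were drawn probe by probe with the same SD in all stocks, unlike the measured ones, so the shares may not hold for the measured ratios.

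The probes with the lowest p in this pair are given as values. C068R124 held -1.20 at the lowest, 0.94 at the median and 1.42 at the highest in Fraser fish, against -2.07, -1.33 and -0.18 in S_Main fish. The difference was 1.71 (SE 0.34, adjusted p = 0.574), and 7 of 9 Fraser fish lay above all S_Main fish. C178R087 held -2.09, -0.42 and 1.40 in Fraser fish and -2.79, -1.75 and -0.64 in S_Main fish, a difference of 1.86 (SE 0.42, adjusted p = 1). In the other direction C225R164 held -1.90, -0.63 and 0.34 in Fraser fish and -0.50, 0.54 and 1.73 in S_Main fish, a difference of -1.28 (SE 0.35, adjusted p = 1). C153R079 held -1.87, -1.18 and -0.43 in Fraser fish and -0.80, -0.59 and 0.00 in S_Main fish, a difference of -0.74 (SE 0.21, adjusted p = 1), and 8 of 9 Fraser fish lay below every S_Main fish. None of these 4 passed the test in this pair with all fish entered, and C068R124 passed without the slide of 4 Fraser fish (2.10, adjusted p = 0.0358). All 4 passed the three-way F test, with adjusted p of 0.021, 0.0295, 0.0446 and 0.0285 in the order given. Of the pairs with ECVI, only ECVI against Fraser at C153R079 passed (0.87, limma, adjusted p = 0.0195).

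Empty cells were examined separately, because 50.3% of the cells of these 26 arrays held no ratio and a probe measured mainly in 1 stock is removed by the filter. By Fisher's exact test of measured against empty fish, no probe was called in any pair (0% of 24517, 24554 and 20349 probes). Before adjustment, 1676 probes had p below 0.05 for ECVI against Fraser, 1662 of them measured in a smaller share of ECVI fish, and 2672 for ECVI against S_Main, 2669 of them in a smaller share of ECVI fish. For Fraser against S_Main, 375 were measured in a smaller share of Fraser fish and 17 in a larger one. The lowest adjusted p was 0.297, 0.22 and 1 in these 3 pairs. C129R148 was measured in 0 of 9 ECVI fish, 8 of 9 Fraser fish and 8 of 8 S_Main fish (ECVI against S_Main, Fisher's exact p = 4.11e-05, adjusted p = 0.22). That is the widest split which fish of these numbers allow, and it did not pass after adjustment. The count of 0 called probes therefore cannot decide whether single probes differ in their measured share. C009R132 was measured in 1 of 9 ECVI fish, 9 of 9 Fraser fish and 7 of 8 S_Main fish (ECVI against Fraser, Fisher's exact p = 0.000411, adjusted p = 0.297). The direction of these differences is that of the lower number of measured probes on ECVI arrays.

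Body size did not separate the stocks by the tests run. Fork length (snout to the fork of the tail) was 23.1 ± 3.47 cm in ECVI, 23.6 ± 2.04 cm in Fraser and 22.8 ± 2.1 cm in S_Main (SD, n = 9, 9 and 8). Mass was 166 ± 77.6 g in ECVI, 170 ± 39.5 g in Fraser and 146 ± 38.0 g in S_Main. Condition factor, 100 times mass in g over the cube of length in cm, was 1.24 ± 0.0625 in ECVI, 1.27 ± 0.0574 in Fraser and 1.20 ± 0.0516 in S_Main. The lowest of the 9 p-values was that of condition factor in Fraser against S_Main (difference 0.0628, exact permutation p = 0.0324, adjusted p = 0.292).

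The same stock contrasts were fitted in hatchery fish of that fall, none of which is among the 26. Of the 17 slides of these fish, 1 held fish of 2 stocks, so stock was almost wholly tied to slide here too. Fits on slide means or with slide as a fixed block were not run in them. In hatchery fish 7093 of 18122 probes (39.1%) were called between ECVI and Fraser, 3331 higher (18.4%) and 3762 lower (20.8%) in ECVI. Between ECVI and S_Main 5300 (29.2%) were called, 2347 higher (13%) and 2953 lower (16.3%). Fraser against S_Main gave 0 by limma (0%), with 747 probes at p below 0.05 before adjustment, and the three-way test 6312 (34.8%). With catch area in the fit the counts were 4541 for ECVI and Fraser, 4390 for ECVI and S_Main and 3805 in the three-way test. With the number of measured probes in the fit they were 6929, 5365 and 6199. That number averaged 23092 ± 1985 in hatchery ECVI, 21991 ± 3527 in hatchery Fraser and 23156 ± 2168 in hatchery S_Main fish (SD, n = 9, 10 and 7), and its differences were not tested. Their scores on the outside axis averaged 0.95 ± 0.65, against -0.81 ± 0.20 in hatchery Fraser and -0.72 ± 0.16 in hatchery S_Main fish, but this axis was computed from fish that included them.

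Of the 805 probes called between ECVI and Fraser in wild fall fish, 802 were also tested in hatchery fish, and 99.1% had the same sign there, against 75.4% of all probes tested in both. In hatchery fish 87.7% of them were called in the same direction and 0 in the opposite one, where 39.1% of all probes tested were called. Of the 421 probes called between ECVI and S_Main, 420 were tested in hatchery fish, where 100% had the same sign (77.5% of all probes) and 87.4% were called, against 29.2% of all probes tested. The lower probes had a median difference of -1.27 in wild and -1.46 in hatchery fish for ECVI and Fraser, and -1.35 and -1.63 for ECVI and S_Main. Of the hatchery fish, 8 lay on 6 slides that also carried some of the 26, and all arrays share the pool.

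The named probes were followed in the same way. C257R085 stood at -2.54 ± 2.39 in wild ECVI and 1.04 ± 0.51 in wild Fraser fish, and at -2.86 ± 1.72 in hatchery ECVI and 0.74 ± 0.36 in hatchery Fraser fish. The hatchery difference was -3.48 (SE 0.47, adjusted p = 4.91e-06). C162R122 differed between hatchery ECVI and S_Main fish by -3.72 (SE 0.52, adjusted p = 2.47e-05). C001R076 differed between hatchery ECVI and Fraser fish by -1.84 (SE 0.27, adjusted p = 1.53e-05), close to the -1.90 of wild fish. C032R027 was 3.13 higher in hatchery ECVI than Fraser fish (SE 0.33, adjusted p = 7.8e-07), against 1.42 in wild fish. The wild difference minus the hatchery one was -1.71 and did not pass (limma, adjusted p = 0.31). C150R132, at which measured wild ECVI fish did not overlap the other stocks, held ratios between -1.92 and 1.90 in hatchery ECVI and between -1.63 and 0.99 in hatchery Fraser fish, a difference of 0.71 (SE 0.46, adjusted p = 0.23). Between hatchery ECVI and S_Main fish it differed by 1.56 (SE 0.56, adjusted p = 0.0372). Its ECVI and Fraser difference in wild fish minus that in hatchery fish was 1.15 and did not pass (limma, adjusted p = 0.443). C123R072 differed by 0.86 between hatchery ECVI and S_Main fish (SE 0.45, adjusted p = 0.149).

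**Figure D4:**
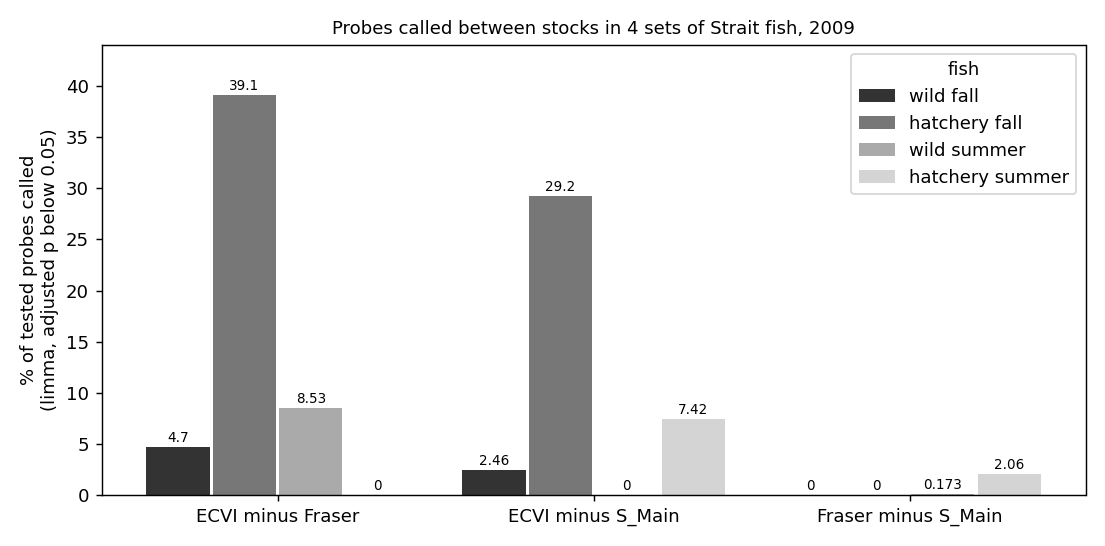
Percentage of tested probes called by limma (adjusted p below 0.05) for each stock pair in wild fall, hatchery fall, wild summer and hatchery summer fish of 2009. ECVI and Fraser differ at 4.7%, 39.1%, 8.53% and 0% of probes, and Fraser and S_Main at 0%, 0%, 0.173% and 2.06%.

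Whether the stock differences themselves changed with origin in fall was tested as a difference of differences, wild minus hatchery, with hatchery ECVI fish all from NM_SoG. Over 17510 probes, 3 (0.0171%) were called for ECVI and Fraser, 2 higher (0.0114%) and 1 lower (0.00571%), and 0 in the three-way test and the other pairs (limma; 1223 probes at an unadjusted p below 0.05 in the three-way test, 1214 for ECVI and S_Main and 302 for Fraser and S_Main). C044R054 averaged -0.01 ± 0.59 in the 4 wild ECVI fish measured and -0.31 ± 0.38 in 9 wild Fraser fish, against -1.74 ± 0.65 in 7 hatchery ECVI and -0.19 ± 0.35 in 10 hatchery Fraser fish. The difference of differences was 1.77 (SE 0.35, adjusted p = 0.0452). C093R015 gave 1.68 (SE 0.33, adjusted p = 0.0452) and was likewise measured in 4 of the 9 wild ECVI fish. C187R112 gave -1.40 (SE 0.28, adjusted p = 0.0452), with 0.03 ± 0.30 in 7 wild ECVI and 0.20 ± 0.32 in 9 wild Fraser fish, against 1.17 ± 0.54 in 9 hatchery ECVI and -0.13 ± 0.37 in 7 hatchery Fraser fish. At all 3 the stocks lay far apart in hatchery fish and close together in wild fish. With quantile normalization or fork length in the fit, none was called, and without a slide block 15 were.

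In wild fish of summer 2009, where all ECVI fish were from south_SoG and nearly all Fraser fish from NM_SoG, the stocks gave other counts. Of the 18 slides of these fish, 2 held fish of 2 stocks, and no fit on slide means was run in them. Of 17378 probes, 1483 (8.53%) were called between ECVI and Fraser, 565 higher (3.25%) and 918 lower (5.28%) in ECVI. Between ECVI and S_Main limma called 0 (0%), while 1625 probes had p below 0.05 before adjustment. Between Fraser and S_Main 30 were called (0.173%), 8 higher (0.046%) and 22 lower (0.127%) in Fraser, and the three-way test called 129 (0.742%). S_Main fish in summer were spread along the outside axis, between -1.29 and 1.63, as were ECVI fish, between -0.84 and 1.68, whereas summer Fraser fish kept to -0.93 to -0.44. These summer fish also entered the axis. With catch area in the fit, limma called 0 probes for ECVI and Fraser (669 at p below 0.05 before adjustment) and 26 for Fraser and S_Main. With the number of measured probes in the fit the counts were 1534 for ECVI and Fraser, 0 for ECVI and S_Main (2767 at p below 0.05 before adjustment), 17 for Fraser and S_Main and 728 in the three-way test.

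Hatchery fish of summer 2009 gave a different order of the stocks by their counts, and this difference from the other sets was not tested. With limma, 0 of 17592 probes (0%) were called between ECVI and Fraser, 1167 having p below 0.05 before adjustment. ECVI and S_Main differed at 1306 (7.42%), Fraser and S_Main at 363 (2.06%), and the three-way test called 665 (3.78%). With the number of measured probes in the fit the counts were 1, 1534, 847 and 1068. C087R153 averaged 1.22 ± 0.57 in hatchery summer ECVI, 1.27 ± 1.07 in Fraser and -0.81 ± 2.53 in S_Main fish (SD, n = 8, 10 and 6). C257R085 averaged 0.66 ± 0.40 in ECVI, 0.74 ± 0.27 in Fraser and -0.59 ± 1.72 in S_Main fish. C162R122 averaged 0.83 ± 0.44 in ECVI, 0.83 ± 0.38 in Fraser and -0.79 ± 1.74 in S_Main fish. All 3 probes, low in most ECVI fish of fall, had ECVI means within 1 SD of the Fraser means here, and the lowest values, down to -4.20 at C087R153, were in S_Main fish. C032R027, called higher in ECVI than in Fraser in wild fall fish, averaged -2.25 ± 0.63 in ECVI and -1.53 ± 0.79 in Fraser fish here. C077R102, called in the same direction, averaged -0.64 ± 0.52 and -1.22 ± 1.22. The share of wild fall calls that kept their sign was not computed in hatchery summer fish. On the outside axis ECVI scored -0.87 ± 0.10, Fraser -0.84 ± 0.07 and S_Main 0.00 ± 0.85.

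Of the wild fall ECVI against Fraser probes, 803 were tested in summer, and 98.9% had the same sign (77.1% of all probes) and 43.7% were called, against 8.53% of all probes tested. For ECVI against S_Main, 92.6% of 418 had the same sign (65.2% of all probes) and 0 were called, as over all probes, with a median difference of -0.54 at the lower probes in summer, against -1.35 in fall. C087R153 differed in summer by -3.48 between ECVI and Fraser (SE 0.87, adjusted p = 0.0333), but by -1.25 between ECVI and S_Main (SE 0.89, adjusted p = 0.648). The ECVI and S_Main difference in fall minus that in summer was -1.89 and did not pass (limma, adjusted p = 0.899). In summer S_Main fish the ratios of C087R153 ran between -4.42 and 2.27, and reached below every Fraser and S_Main fish of fall. C077R102 differed by 1.32 between summer ECVI and Fraser fish (SE 0.40, adjusted p = 0.0423).

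The difference between seasons was itself tested in wild fish over 17094 probes, fall minus summer, with the tie of stock to area in summer as given above. No probe was called by limma in the three-way test (0%; 992 at p below 0.05 before adjustment), for ECVI and Fraser (600), for ECVI and S_Main (872) or for Fraser and S_Main (1552). In simulated ratios, drawn with the same SD in all groups, a difference of differences of 1 between ECVI and Fraser was recovered for 28.4% of probes. Changes of that size would mostly have been missed in such ratios, and the share may differ in the measured ones. For ECVI and S_Main the lowest p was at C101R158, which averaged 0.99 ± 0.85 in fall ECVI (n = 6) and -1.04 ± 0.96 in fall S_Main fish (n = 7), against -0.88 ± 0.44 in summer ECVI and 0.06 ± 1.00 in summer S_Main fish (n = 8 each). Its difference of differences was 2.95 (SE 0.66, adjusted p = 0.849). For Fraser and S_Main, C225R164 gave a difference of differences of -1.92 (SE 0.47, adjusted p = 0.442).

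**Figure D5:**
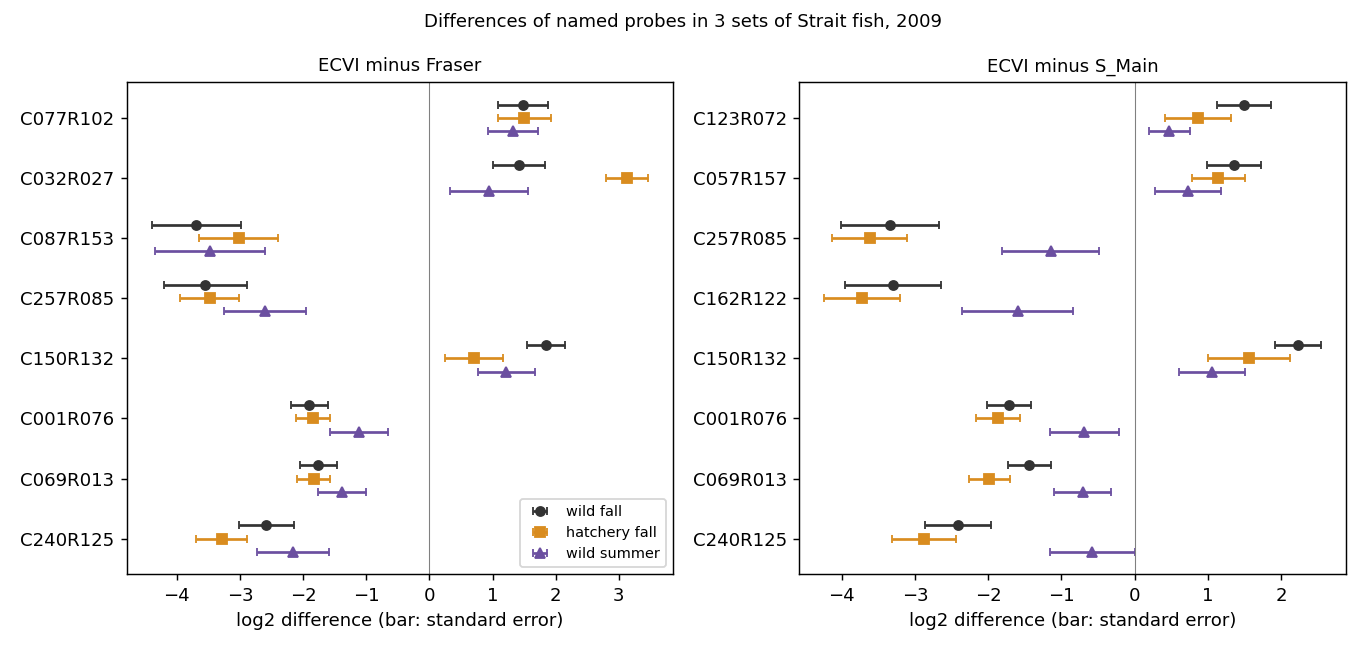
Log2 differences of the named probes between ECVI and Fraser (left) and ECVI and S_Main (right) in wild fall (circles), hatchery fall (squares) and wild summer fish (triangles); bars are standard errors. At C257R085 the ECVI minus S_Main difference is -3.34 in wild fall, -3.62 in hatchery fall and -1.15 in wild summer fish. The wild fall difference minus the wild summer one is -2.19 and did not pass (limma, adjusted p = 0.899).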

How the data were processed

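Log2 ratios of the series value table, 1 per probe and array, were used as the authors deposited them. Per the labels' protocols, fish RNA was amplified and coupled to Alexa 555 and the liver pool to Alexa 647, with no dye swap named. Base and numerator were read from the values and are likely, not stated. For the scanner, the normalization and the rule behind empty cells, nothing is given in the sources used here. Another deposited table was not used here.

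The table held 43567 probes, of which 5725 had no ratio in the 26 fish. Array medians lay between 0.00 and 0.02. Probes measured on at least 80% of the 26 arrays and in at least 3 fish per stock were tested with lmFit and eBayes (limma 3.58.1, R 4.3.3). Slide was a random block with a correlation of 0.0705, estimated on 3000 probes over 224 labelled arrays. Adjusted p-values (Benjamini-Hochberg) cover all probes tested, and 0.05 was the threshold. Pairs of means were compared by exact permutation (SciPy 1.17.1). Tests of measured probes and axis scores, the hatchery summer fit, and catch area and measured probes in the further sets were added after the data were seen.

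Unnamed probes were limited to at most 2 per direction and pair, by largest called difference where measured in at least 80% of fish of both stocks (filled by lowest p), and 4 in the three-way test. The other tests named at most 2 per direction by lowest p. Members and lists were chosen with earlier results of these data known. The planned gene lists and cell type markers could not be run without gene names. The fits were tested on simulated ratios among 17141 probes, where 61.2% (ECVI and Fraser) and 41.8% (ECVI and S_Main) of probes changed by 1 were recovered. The simulated noise was drawn probe by probe, with the same SD in all stocks and the slide correlation above. Each array is a separate fish, and the number of arrays limits the precision. ± is the SD between fish.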

Additional observations from a re-analysis of the deposited data

Results flagged for a closer look

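The stock difference between ECVI and Fraser in fall differed between wild and hatchery fish at 3 probes by a test of the difference itself. The number was 0 with quantile normalization or with fork length in the fit, 1 with catch area and 15 without a slide block. All 9 hatchery ECVI fish came from NM_SoG, against 3 of the 9 wild ones, and the part of area in these differences was not tested beyond that fit. C093R015 had a difference of differences (wild minus hatchery) of 1.68, C044R054 of 1.77 and C187R112 of -1.40. At C093R015 the wild means were -0.23 ± 0.40 in ECVI (n = 4) and 0.18 ± 0.43 in Fraser (n = 9), against hatchery means of -1.58 ± 0.68 in ECVI (n = 9) and 0.57 ± 0.37 in Fraser (n = 10). Among 60 groups of ratios of the named probes or of per-fish measures of 4 to 10 fish, 0 held 1 fish whose gap to the nearest other, relative to the range of the group, passed Dixon's critical value. That rule looks for 1 fish and misses 2 that stand apart together, as ECVI fish 1 and 8 did at C240R125 (0.99 and 0.39, against -3.05 to -2.02 in the other 7).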

How the results depend on the processing

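Counts are given in the order three-way, ECVI and Fraser, ECVI and S_Main. They were 862, 1324 and 680 with no slide block, 884, 1373 and 690 with the slide correlation of the 26 fish, 130, 336 and 1 with slide means as replicates, 3, 4 and 0 with slide as a fixed block in a fit of all arrays, and 277, 499 and 156 with catch area in the fit. They were 0, 0 and 0 with measured probes or the outside axis score (read from the same ratios) in the fit and in NM_SoG fish, south_SoG fish or females alone, and 1, 0 and 1 without the slide of 4 Fraser fish, where Fraser and S_Main gave 1. Without the slide of 4 ECVI fish, fish 1 among them, they were 533, 1089 and 599. ECVI and S_Main also gave 181 with all arrays in the fit and 652 with quantile normalization. In males alone, which leaves out ECVI fish 1 and 8 (both female), the counts were 621, 856 and 612, and the difference between sexes was not tested. Leaving out 1 fish gave 81 to 1670, 195 to 2249 and 1 to 1502, and 0 to 1 for Fraser and S_Main. The three-way count moved by over 1.5 times without ECVI fish 1, 2, 3, 4, 7, 8 or 9 (1670, 193, 81, 346, 177, 1460 and 317). The cause was not tested. The pairwise log2 differences of the 11 probes named in a pair kept their sign wherever an alternative could be fitted, and those of the 4 three-way probes were not recomputed. Without the slide of 4 Fraser fish the 1 probe called between Fraser and S_Main was C068R124. With catch area, hatchery fall counts were 3805, 4541 and 4390, wild summer counts 0, 0 and 0 (26 for Fraser and S_Main). With measured probes in the fit, wild summer counts were 728 (three-way) and 17 (Fraser and S_Main), hatchery summer counts 1068, 1 (ECVI and Fraser) and 847 (Fraser and S_Main), and the other counts of the further sets stayed within 1.5 times. The wild minus hatchery counts were 8 and 15 (three-way, ECVI and Fraser) without a slide block, 0 for ECVI and Fraser with quantile normalization or fork length, and 1 in each ECVI comparison and the three-way test with catch area. Measured probes in ECVI against Fraser and S_Main differed by -1240 and -2020 in NM_SoG fish, -4580 and -5800 in south_SoG fish (no overlap) and -2620 and -2960 on slide means, and the axis score by 0.942 and 0.85, 1.26 and 1.21, and, against S_Main on slide means, 1.12. None of these passed after adjustment, and 3 to 6 fish a side leave the tests within an area little room to pass. Size differences that did not pass the test changed sign. Among south_SoG fish, fork length differed by 0.217 cm (ECVI minus Fraser), -0.85 cm (ECVI minus S_Main) and -1.07 cm (Fraser minus S_Main), and mass by 17.5 g (ECVI minus Fraser) and -9.53 g (Fraser minus S_Main). On slide means, ECVI minus Fraser was 0.529 cm and 16.7 g. No paired analysis was possible because fish numbers only name the fish. The comparison with another deposited table was not run.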

Other observations

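Wild fall fish of 2009 with an ECVI label were also caught outside the Strait. The 2 such fish from the area labelled WCVI scored -0.69 and 0.36 on the outside axis, where the 9 ECVI fish of the Strait ran between -1.25 and 1.52. Their arrays had 22683 and 23814 measured probes. At C087R153 they held 0.06 and -1.28, at C162R122 0.79 and -1.42, and at C240R125 0.24 and -2.70. At C150R132 they held -0.21 and 1.08, and at C001R076 1.68 and -1.02. The first fish thus lay below every measured ECVI fish of the Strait at C150R132 and above all of them at C001R076. The second lay within the Strait ECVI range at both probes. A fish of the stock label Chilliwack_R from south_SoG scored -1.12 and held 1.74 at C087R153, 0.60 at C162R122 and 1.02 at C240R125, inside the Fraser range at each of the 3 probes. These 3 fish entered the axis.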
